A study of Drosophila melanogaster with 9 samples.

Results

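The nuclear genes of oxidative phosphorylation were followed in blood cells of Drosophila melanogaster larvae with or without a transgene for a human BCR-ABL fusion kinase. Members were all genes of the count table whose symbols start with ND-, SdhA to SdhD, UQCR-, COX4 to COX8 or ATPsyn, which name subunits of complexes I to V. The rule found 86 of 17874 genes. Of these, 62 are ordinary, or core, subunits, with 34 in complex I, 4 in complex II, 6 in complex III, 7 in complex IV and 11 in complex V. The other 24 have names ending in L, or in L and a digit. They are testis-type paralogs of such subunits and were described apart, with 6, 3, 3, 8 and 4 in complexes I to V. ND-MNLL was kept with the core, since its last letters are part of the name of the bovine subunit.

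There were 3 groups of 3 biological replicates: the strain W1118 as control, larvae with UAS-BCR-ABLP210 (called p210) and larvae with UAS-BCR-ABLT315I (called T315I). All were third-instar larvae in experiments at 25 °C, and each library holds total RNA of hemocytes pooled from 300 larvae. BCR-ABL is the fusion that drives human chronic myeloid leukaemia, and T315I is its form with a substitution that blocks imatinib binding. A UAS transgene needs a GAL4 driver, and the labels name neither the driver nor the cells it marks, nor do they say whether the control carried one. Strain background and transgene therefore cannot be told apart.

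Oxidative phosphorylation takes place in the inner mitochondrial membrane. Complex I and complex II pass electrons from NADH and succinate to ubiquinone, complex III passes them to cytochrome c and complex IV to oxygen. The proton gradient built on the way drives complex V, the ATP synthase. Most subunits are encoded in the nucleus, while some membrane subunits of complexes I, III, IV and V are encoded by mitochondrial DNA. Many fly subunits have a paralog that is used in the male germ line.

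Total counts were 5.40 to 9.84 M in the control, 14.48 to 18.16 M in p210 and 13.86 to 15.72 M in T315I, so 3 counts correspond to 0.165 to 0.556 CPM (a gene's counts relative to the library total, which was scaled by edgeR's TMM factors). The plasmatocyte markers, genes of the main phagocytic hemocytes, summed to 27116 to 31725 CPM in the control, 32376 to 49962 in p210 and 36967 to 47460 in T315I. Markers of other tissues were also present and moved with the groups. Fat body markers summed to 38675 to 97678 CPM in the control, 4022 to 5944 in p210 and 7730 to 11740 in T315I, and muscle markers to 1325 to 2957, 329 to 371 and 374 to 438 CPM. Lamellocyte markers, genes of the large flat hemocytes that wrap parasites, summed to 3378 to 8494, 15664 to 21130 and 16774 to 19861 CPM. The part of these tissues in the results below was not tested. In bulk RNA such as this, fewer cells of a type and less RNA per cell cannot be told apart.

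Of the 86 members, 12 were at 0 in all 9 libraries. They are the core genes ND-MNLL and UQCR-14 and 10 testis-type paralogs (ND-49L, ND-51L1, ND-51L2, ND-B14.5AL, SdhAL, UQCR-11L, UQCR-6.4L, COX5BL, COX6AL and ATPsynCF6L). These are also the 12 members with no exonic base outside the span of another annotated gene, and the lowest share among the 74 members with counts was 32.2% (COX6AL2). A listing at 0 was therefore not read as absence of the transcript. All 38 mitochondrially encoded genes were listed at 0 as well, so the mitochondrially encoded subunits were not analysed here. Of the members, 60 core genes and 13 testis-type paralogs had enough counts to be tested.

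Levels of the core subunits were compared per length, as mean CPM over the 9 libraries per kb of exon outside other genes. Whether counting covered exons alone or whole gene spans is not known here. Counting of introns would raise the per-length values of genes with long introns. ND-MLRQ, for example, has 538 exonic bp in a span from 23339326 to 23345936. The single subunit with the highest level was ATPsynbeta, the catalytic subunit of the head of ATP synthase (FBgn0010217, chromosome 4, 1031484 to 1034917 in dm6), at 434 CPM per kb. ATPsynC, the subunit of the proton-driven ring (FBgn0039830, chromosome 3R, 31216145 to 31219630), followed at 367 CPM per kb. ND-MLRQ came next at 330 CPM per kb; its human orthologue NDUFA4 is now counted as a subunit of complex IV. The medians were 72.4 CPM per kb in complex I, 67.7 in complex II, 101 in complex III, 166 in complex IV and 162 in complex V. Within complex I the levels per length ran from 1.91 to 330 CPM per kb, with ND-B8 at the bottom. ND-B8 had 84 counts in all libraries together, at 0.185 to 1.44 CPM, although 84.6% of its exonic length is free of other genes. It passed the filter with 2 control and 2 transgene libraries at the cutoff. In complex IV the 7 subunits kept within 127 to 249 CPM per kb.

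**Figure D1:**
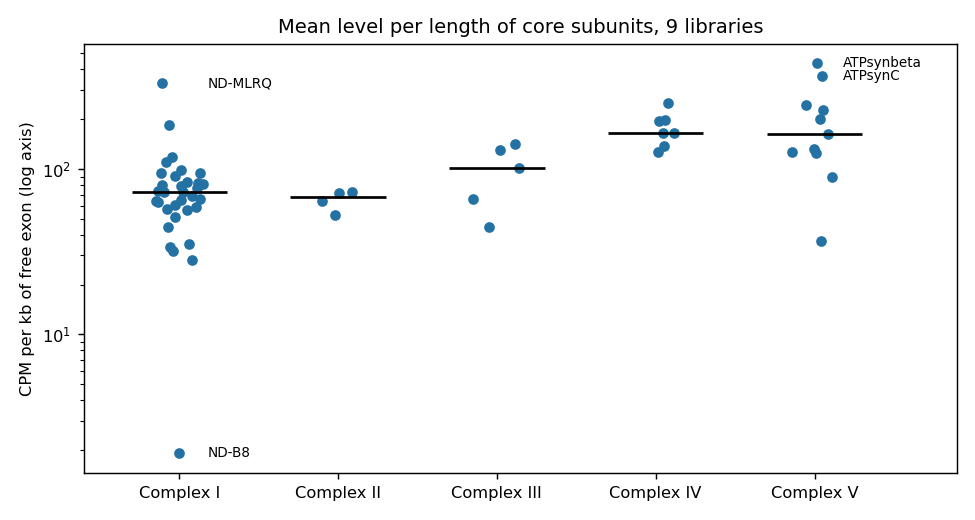
Mean level of each tested core subunit over the 9 libraries, in CPM per kb of exon outside other genes (log axis), by complex, with the median as a line. Complexes IV and V have the higher medians (166 and 162 CPM per kb), and ND-B8 lies far below the other subunits at 1.91 CPM per kb.

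In p210 against control, most core subunits stayed close to the control level. By the quasi-likelihood test of edgeR, with p adjusted by Benjamini-Hochberg over all 9978 genes tested, there were 7 of 60 called higher (11.7%), where 26.9% of all genes were called higher and 57.1% in either direction. None of 60 was called lower, with 0 also at an unadjusted p under 0.05 and by DESeq2 (which called 7 higher), where 30.3% of all genes were called lower. Their median log2 fold change was 0.18, or -0.28 when libraries were scaled to the plasmatocyte markers, of which 5 of 12 were themselves called higher, and the median over all genes moved from 0.05 to -0.45 with it. The marker sum had group means of 29308 CPM (control) and 42907 CPM (p210). Ppn, 1 of the markers, had means of 4383 and 14227 CPM. Its log2 fold change of 1.70 was the largest of the 12, while 7 markers were not called. Under their own scaling the 12 markers had a median of -0.24. The scaling uses the plain sum of marker counts, so most of the rise in that sum came from Ppn. A marker sum without Ppn was not tested. Plasmatocyte marker scaling also turned the 2681 genes called higher and 3019 called lower in the whole table into 514 and 3562. Among core subunits it ended the 7 calls and left 0 higher and 1 lower, ATPsynbeta at -0.78 (edgeR adjusted p = 0.0454). Relative to the median of all genes the core median was 0.13 by the first scaling and 0.17 by the second. Log2 fold changes of core subunits ran from -0.66 to 0.79 and 57 of 60 lay within 0.5 of no change, against 41.8% of all genes. None reached 1. All 3 p210 libraries lay above all 3 control libraries for 12 of 60 core subunits, where 31.2% of all genes did so, and the reverse held for 0, where 30.4% of all genes did.

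**Figure D2:**
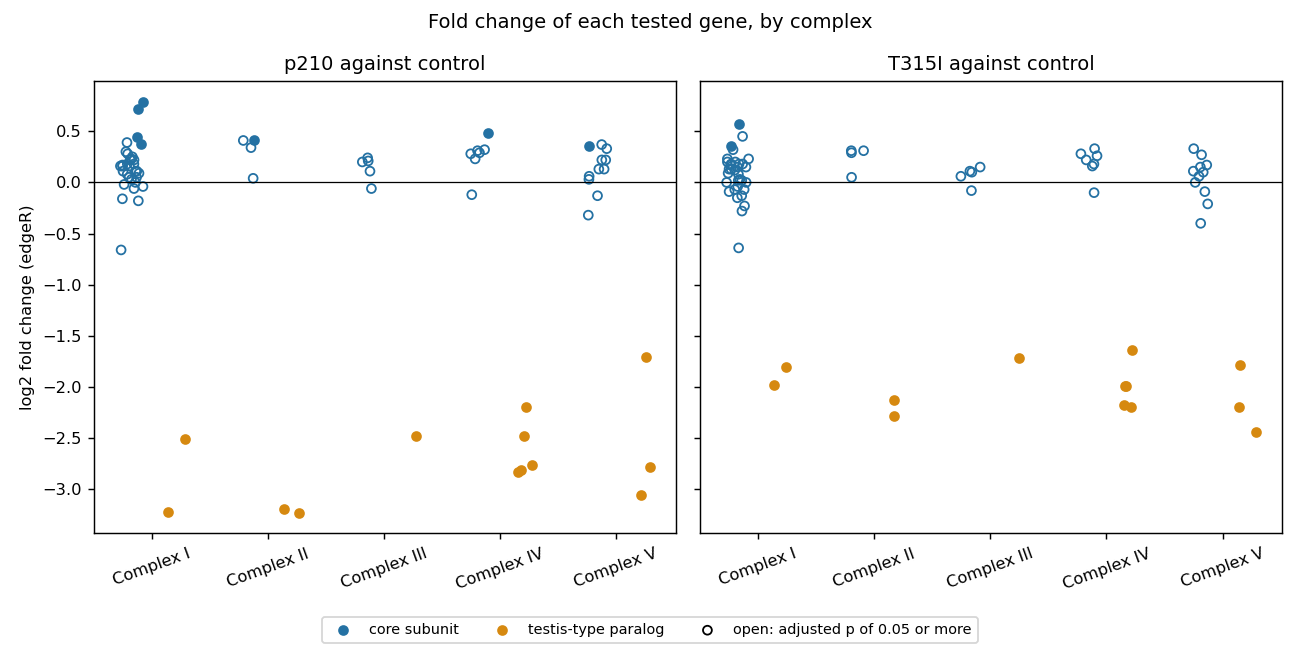
Log2 fold change by edgeR of each tested core subunit (blue) and testis-type paralog (orange) against the control, by complex, for p210 on the left and T315I on the right; filled points have an adjusted p under 0.05. Core subunits lie near 0, with medians of 0.18 and 0.12 that become -0.28 and -0.35 when scaled to plasmatocyte markers, and the 13 testis-type paralogs lie between -3.23 and -1.64.

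Of the 33 tested subunits of complex I, 4 rose in p210, all of them below a 2-fold change. The clearest was ND-ACP, the mitochondrial acyl carrier protein (FBgn0011361, chromosome 3L, 1329949 to 1331631), which is a subunit of complex I and also serves mitochondrial fatty acid synthesis. It stood at 109, 109 and 119 CPM in the control libraries, 208, 169 and 178 in p210, and 180, 161 and 162 in T315I. Every library with a transgene was above every control library. The log2 fold change was 0.72 ± 0.12 (SE) in p210, with an adjusted p of 0.00154 by edgeR, and 0.24 when scaled to the plasmatocyte markers, where it was not called. ND-AGGG, an accessory subunit of the membrane arm, was at 18.6, 12.1 and 15.5 CPM in the control, 31.1, 23.8 and 24.6 in p210, and 22.7, 16.6 and 23.5 in T315I. Its p210 libraries were all above the control, while T315I replicate 2 fell among the control libraries. The p210 difference was 0.79 ± 0.21 with an edgeR adjusted p of 0.0106, and 0.32 with no call under plasmatocyte marker scaling.

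The other risers of complex I were smaller. ND-B17, another accessory subunit of the membrane arm, went from 66.1, 67.7 and 65.0 CPM in the control to 101, 82.1 and 75.2 in p210 and 87.8, 88.5 and 79.2 in T315I, with no overlap between control and either group. Its difference in p210 was 0.38 ± 0.13 (edgeR adjusted p = 0.0271), or -0.09 under plasmatocyte marker scaling. ND-30, a subunit of the arm that faces the matrix, was called at 0.44 ± 0.16 (edgeR adjusted p = 0.0416). It was at 55.2, 38.6 and 46.9 CPM in the control and 72.5, 65.5 and 52.0 in p210, so the libraries overlapped, and 14 of 17 other settings did not call it. The subunits of the electron path listed here did not pass the test. ND-51, which binds the flavin that takes electrons from NADH, had 0.22 ± 0.15, ND-75, with iron-sulfur clusters, 0.22 ± 0.12, and ND-20 and ND-49, next to the ubiquinone site, 0.22 ± 0.13 and 0.25 ± 0.13. At the other end of the complex stood ND-B22 at -0.18 ± 0.13 and the scarce ND-B8 at -0.66 ± 0.61, neither of them called.

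Complex II, succinate dehydrogenase, is also an enzyme of the citric acid cycle and has no mitochondrially encoded subunit. SdhC, a membrane anchor (FBgn0037873, chromosome 3R, 11208887 to 11209849), was the subunit of the 4 that rose. It was at 63.5, 51.6 and 52.1 CPM in the control, 81.6, 74.3 and 65.0 in p210 and 72.0, 64.2 and 70.3 in T315I. Both transgene groups lay above the control, and the p210 difference was 0.41 ± 0.13 (edgeR adjusted p = 0.0232), or -0.08 under plasmatocyte marker scaling. SdhA, the flavoprotein, was at 0.34 ± 0.13 with an edgeR adjusted p of 0.0565 and no overlap between p210 and control. SdhB, the iron-sulfur subunit, had 59.3, 30.4 and 55.1 CPM in the control and 72.9, 59.7 and 58.9 in p210. The control spread, with control replicate 2 lowest, left its difference at 0.41 ± 0.23 without a call. SdhD, the other anchor, was at 0.04 ± 0.15. In complex III none of 5 tested subunits was called by edgeR or by DESeq2, and 1 had an unadjusted p under 0.05. UQCR-C1 and UQCR-C2, the large matrix-side proteins, were at -0.06 ± 0.13 and 0.20 ± 0.12, and the small subunits UQCR-11, UQCR-6.4 and UQCR-Q at 0.24 ± 0.11, 0.21 ± 0.14 and 0.11 ± 0.15.

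Nuclear subunits of complex IV surround a mitochondrially encoded catalytic core. COX5A (FBgn0019624, chromosome 3R, 11819359 to 11820299) rose in p210, with 128, 85.2 and 93.4 CPM in the control and 166, 133 and 130 in p210. Its lowest p210 library was just above control replicate 1, and the difference was 0.48 ± 0.17 (edgeR adjusted p = 0.0312), or 0.01 under plasmatocyte marker scaling. T315I had 133, 130 and 123 CPM and was not called. The other 6 subunits ran from COX7A at -0.12 ± 0.13 to COX7C at 0.32 ± 0.14, with COX4 at 0.28 ± 0.14, COX5B at 0.31 ± 0.13, COX6B at 0.29 ± 0.17 and COX8 at 0.23 ± 0.14.

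Complex V held the most abundant members. ATPsynC rose in p210, from 574, 508 and 570 CPM in the control to 790, 699 and 626, with T315I at 706, 666 and 709. The p210 difference was 0.36 ± 0.13 (edgeR adjusted p = 0.036), or -0.12 under plasmatocyte marker scaling. ATPsynbeta was at 1376, 895 and 970 CPM in the control, 1035, 828 and 739 in p210 and 884, 781 and 795 in T315I. Control replicate 1 was its highest library, and the differences of -0.32 ± 0.19 and -0.40 ± 0.19 were not called (edgeR adjusted p = 0.182 and 0.112), though they were under plasmatocyte marker scaling. The rotor shaft gene ATPsyngamma and the stator gene ATPsynO were both at 0.13, with errors of 0.14 and 0.13, and ATPsynCF6 and ATPsyndelta at 0.37 ± 0.20 and 0.33 ± 0.17, not called.

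**Figure D3:**
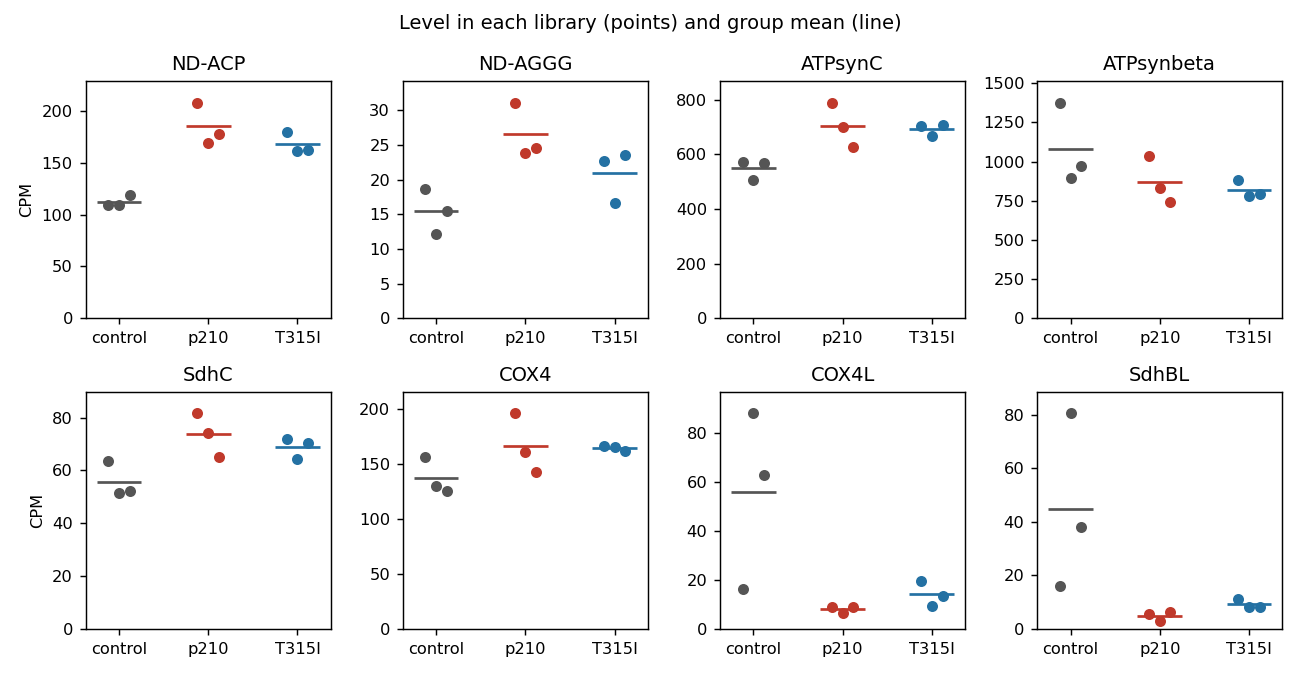
CPM in each library (points, replicates 1 to 3 from left to right) and the mean of each group (line) for 6 core subunits and 2 testis-type paralogs; each panel starts at 0. All transgene libraries lie above the controls for ND-ACP and ATPsynC, ATPsynbeta lies lower in T315I without a call, and COX4L and SdhBL vary most among the control libraries.

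In T315I against control, 2 of 60 core subunits were called higher (3.33%), against 20.5% of all genes and 49.3% called in either direction. DESeq2 called 3 higher. None was called lower by edgeR or DESeq2, 0 also at an unadjusted p under 0.05, where 28.7% of all genes were. The 2 were ND-ACP at 0.57 ± 0.12 (edgeR adjusted p = 0.00572) and ND-B17 at 0.36 ± 0.13 (edgeR adjusted p = 0.0373), which became 0.11 and -0.10 when scaled to plasmatocyte markers. The core median was 0.12, or -0.35 under that scaling, where the median over all genes went from -0.02 to -0.49 and the calls in the whole table from 2048 higher and 2867 lower to 414 and 3516. Of core subunits 0 were then higher and 2 lower, ATPsynbeta at -0.86 and ATPsynE at -0.68 (edgeR adjusted p = 0.03 and 0.0498). Relative to all genes it was 0.14 by either scaling. Within 0.5 of no change lay 58 of 60, against 46.6% of all genes. T315I libraries were all above the control for 13 core subunits (30.3% of all genes) and all below it for 4 (27.8%), namely ND-13A, ND-B14.7, ATPsynE and ATPsynbeta. ND-ACP, SdhC, ATPsynC and SdhA were among those above, and the last 3 were not called (edgeR adjusted p = 0.0736 for SdhC, 0.0526 for ATPsynC and 0.0979 for SdhA). By complex the medians were 0.12, 0.30, 0.10, 0.22 and 0.10 for complexes I to V, where p210 had 0.16, 0.37, 0.20, 0.29 and 0.13. These comparisons share the control libraries, so their likeness is not independent.

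The counts of called core subunits depended on single libraries. Without p210 replicate 1, 2 were called higher in p210 and the core median was 0.07, without p210 replicate 2 the count was 3, and without control replicates 2 and 3 it was 4 and 3. Without control replicate 1, the shallowest library, it was 16, and 11 in T315I. For T315I the count was 1 without control replicate 2 or 3 or T315I replicate 1 or 2, and 4 without p210 replicate 3. In p210 replicate 1, 58 of 60 core subunits had their highest p210 level, and the summed core level was 8490 CPM there against 6982 and 6405 in p210 replicates 2 and 3. The control libraries summed to 7217, 6216 and 6570 CPM and T315I to 7180, 6871 and 6824, so the sums of the groups overlapped. Mitochondrial and cytosolic ribosomal protein genes were also highest in p210 replicate 1, with sums of 2396 and 114103 CPM. The plasmatocyte markers were lowest of the p210 libraries there, at 32376 CPM against 46383 and 49962, and their part in the core level was not tested.

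T315I against p210 asks whether the substituted kinase differs from the original one. edgeR called 0 of 60 core subunits, 0 had an unadjusted p under 0.05 and DESeq2 called 0. In the whole table edgeR called 1 gene, or 0.01%, and DESeq2 9 higher and 26 lower. The core median was -0.07, with a range of -0.34 to 0.16 and 51 of 60 below 0. Without p210 replicate 1 that median was 0.06. ND-AGGG had the largest difference at -0.34 ± 0.21, and its libraries did not overlap. ND-B12 was at -0.27 ± 0.17 and COX5B at -0.15 ± 0.13, also without overlap, where 7.09% of all genes were lower without overlap. ND-ACP was at -0.14 ± 0.11. At the upper end stood ND-MWFE at 0.16 ± 0.21 and ND-B14 at 0.06 ± 0.13. The standard errors of core subunits ran from 0.11 to 0.61 with a median of 0.14. ND-AGGG was not called (edgeR adjusted p = 0.999), so differences larger than their standard error could also go undetected here.

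The testis-type paralogs fell. All 13 that were tested, of 24 members, fell in p210 and in T315I (edgeR adjusted p from 0.00168 to 0.036 in p210 and from 0.00597 to 0.0357 in T315I), where 30.3% and 28.7% of all genes were called lower. The median log2 fold change was -2.78 in p210 (range -3.23 to -1.71) and -1.99 in T315I (range -2.44 to -1.64). None of the 13 passed the filter on low counts through the control libraries alone. The replicate number as a block left 8 of the 13 calls in T315I, and 7 were left without control replicate 2 or without T315I replicate 2. All p210 libraries lay below all control libraries for 11 of the 13 (30.4% of all genes), and all T315I libraries for 6 (27.8%).

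SdhBL, the paralog of the iron-sulfur subunit of complex II (FBgn0030975, chromosome X, 18894446 to 18896581), was at 15.9, 80.6 and 38.0 CPM in the control. It had 5.60, 2.98 and 6.15 CPM in p210 and 11.2, 8.37 and 8.22 in T315I, and neither group overlapped the control. The differences were -3.19 ± 0.53 and -2.28 ± 0.51. COX4L, the most abundant paralog of complex IV, was at 16.4, 88.2 and 63.1 CPM in the control, 9.16, 6.66 and 9.01 in p210 and 19.7, 9.50 and 13.4 in T315I. Here T315I replicate 1 was above control replicate 1, and the differences were -2.76 ± 0.53 and -1.99 ± 0.51. ATPsynbetaL, the paralog of the catalytic subunit of complex V, had 8.31, 30.2 and 25.2 CPM in the control, 2.32, 3.54 and 3.51 in p210 and 5.44, 2.11 and 4.24 in T315I. It fell by 2.78 and 2.44 on the log2 scale, while ATPsynbeta was not called.

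The paralogs of complex I, ND-20L and ND-24L, stood at -2.51 ± 0.51 and -3.22 ± 0.63 in p210 and at -1.98 ± 0.50 and -1.80 ± 0.58 in T315I. SdhCL was at -3.23 ± 0.57 and -2.13 ± 0.54, and UQCR-14L, of complex III, at -2.48 ± 0.55 and -1.72 ± 0.53. In complex IV the p210 values were -2.83 for COX6AL2, -2.81 for COX7AL, -2.48 for COX6CL and -2.20 for COX7CL, against -2.18, -1.99, -2.20 and -1.64 in T315I. Of complex V, ATPsynGL was at -3.06 and -2.20 and ATPsynepsilonL at -1.71 and -1.78. The last had the weakest calls, which 8 of 17 other settings lost in p210 and 9 in T315I. COX7AL2 had 44 counts in all and was not tested.

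Control replicate 1 had the lowest control level for all 13 tested paralogs and control replicate 2 the highest for 12 of 13. Their sums were 88.2, 430 and 272 CPM in the control libraries, 36.6, 32.5 and 43.9 in p210 and 82.0, 48.2 and 58.4 in T315I. The 22 testis markers moved with them, at 881, 4337 and 2339 CPM in the control, 331, 290 and 432 in p210 and 737, 511 and 582 in T315I. Of 20 tested testis markers, 19 were lower in p210 and 18 in T315I, with medians of -2.78 and -2.01, where 30.3% and 28.7% of all genes were called lower. 1 marker, sa, was at 0 in every library. The part of testis RNA in the fall of the paralogs was not tested.

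**Figure D4:**
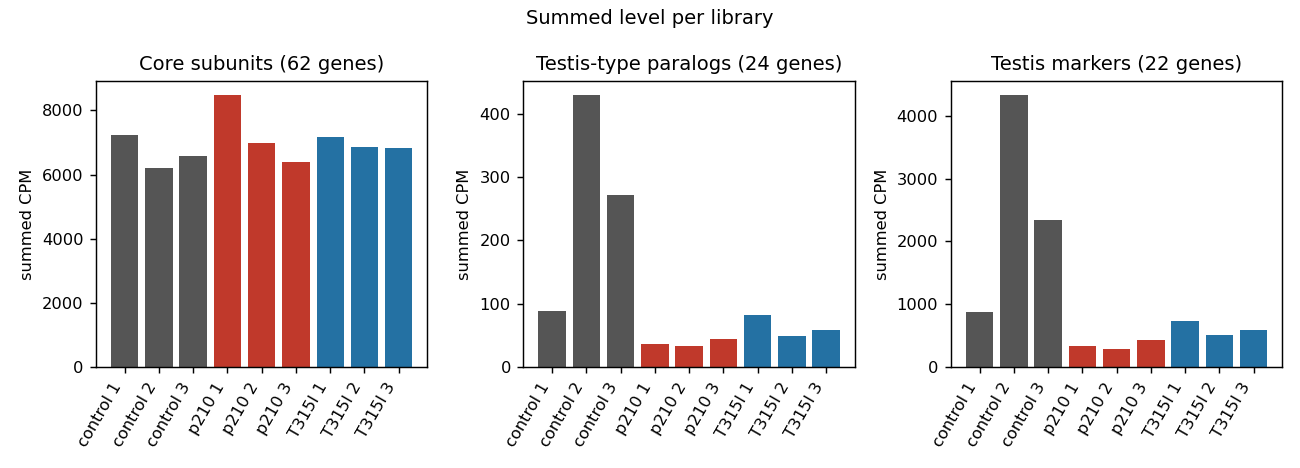
Summed CPM in each library for the 62 core subunits, the 24 testis-type paralogs and the 22 testis markers (bars start at 0; grey control, red p210, blue T315I). The core sums of the groups overlap, while paralogs and testis markers are both highest in control replicate 2 (430 and 4337 CPM) and lower in the transgene libraries.

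In T315I against p210 none of the 13 paralogs was called by edgeR or DESeq2 and 1 had an unadjusted p under 0.05. It was ND-24L, at 1.43 ± 0.61, with 5.37, 3.02 and 3.00 CPM in T315I and 1.47, 0.992 and 1.76 in p210. The log2 fold change was above 0 for 12 of 13, with a median of 0.76, and for 6 of them all T315I libraries were above all p210 libraries (9.57% of all genes). The testis markers had a median of 0.78 in that comparison.

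Set against the ordinary gene of the same subunit, in percent of its CPM per kb of exon outside other genes, the paralogs of 12 measured pairs had group means of 2.29 to 72.4% in the control (median 18.4%). The range was 0.393 to 8.48% in p210 (median 2.34%) and 0.494 to 14.6% in T315I (median 4.58%). All p210 libraries lay below all control libraries in 12 of 12 pairs, and all T315I libraries in 6. A share over all genes is not available for such ratios, but in plain CPM it was 30.4% and 27.8%. For COX6CL the highest p210 library, at 2.99%, was close to the lowest control library, at 3.2%. ATPsynepsilonL was alike, at 1.32 and 1.54%, and both genes overlapped in plain CPM. Per length, COX4L was at 17.7, 114 and 85.2% of COX4 in the control libraries. The p210 and T315I libraries gave 8.48 ± 1.89% (SD, n = 3) and 14.6 ± 5.19%, and T315I replicate 1, at 20.1%, was above control replicate 1. SdhBL reached 148% of SdhB in control replicate 2 and 15 and 38.5% in control replicates 1 and 3. It was at 4.31 ± 1.53% in p210 and 8.84 ± 2.40% in T315I, below every control library. At the low end ATPsynbetaL was at 2.29 ± 1.5% of ATPsynbeta in the control and 0.393 ± 0.140% in p210. COX7A and COX7AL are neighbours on chromosome 3R, at 8339944 to 8341043 on the minus strand and 8343669 to 8344310 on the plus strand, with 2625 bp between them. COX7AL was at -2.81 ± 0.57 in p210 and COX7A at -0.12 ± 0.13. Reads of a paralog and its ordinary gene could be shared where their sequences are alike. How such reads were counted is not given in the sources used here. Reads of introns, if counted, would also enter these ratios.

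**Figure D5:**
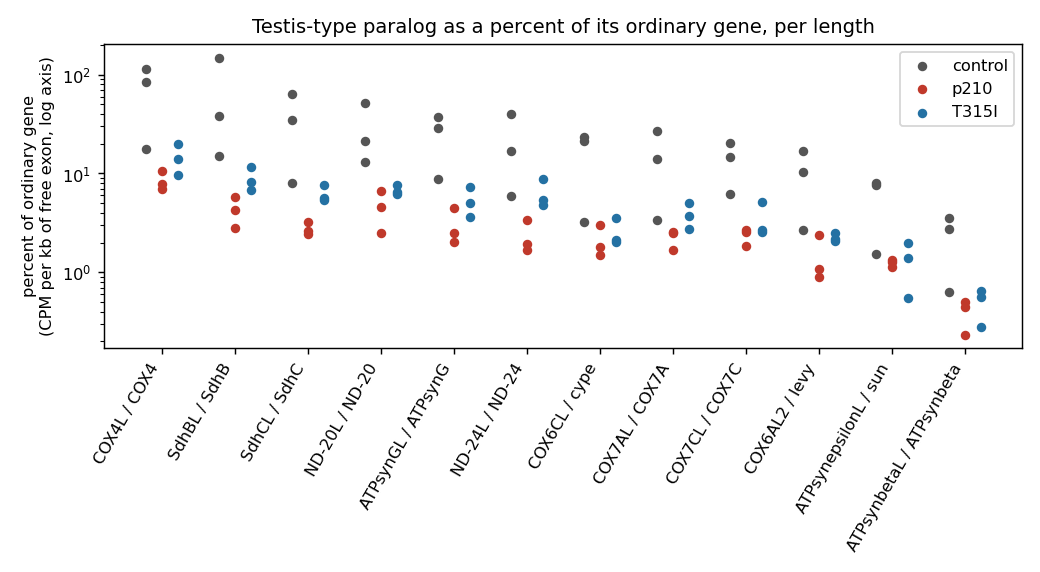
Level of each testis-type paralog as a percent of its ordinary gene in each library, both in CPM per kb of exon outside other genes (log axis), for the 12 pairs with both genes measured and the paralog tested. Control libraries (grey) spread widely, with SdhBL between 15 and 148% of SdhB, all p210 libraries (red) lie below them in 12 pairs, and all T315I libraries (blue) do so in 6. In plain CPM, 30.4% and 27.8% of all genes lay below the control in this way.

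Subunits of the same complexes that carry other names, with the cytochromes c, gave 3 of 10 tested called higher and 2 lower in p210, and 2 and 2 in T315I. These shares are near those over all genes, which were 26.9% higher and 30.3% lower in p210 and 20.5% and 28.7% in T315I. Cyt-c-p, the cytochrome c of the soma that carries electrons from complex III to IV, rose from 37.9 ± 15.5 CPM (SD, n = 3) to 95.9 ± 5.28 in p210 and 87.0 ± 3.09 in T315I, with log2 fold changes of 1.34 ± 0.25 and 1.20 ± 0.25. It was the riser of this list that was also called under plasmatocyte marker scaling, at 0.88 and 0.76. Cyt-c-d, the cytochrome c of the testis, fell from 33.3 ± 18.9 to 4.67 ± 1.44 and 7.34 ± 2.27 CPM (-2.84 ± 0.47 and -2.19 ± 0.46). knon, a male germ line relative of a complex V subunit, fell by 2.93 and 2.05 on the log2 scale. sun, the epsilon subunit of complex V, rose in p210 (0.51 ± 0.13), and cype, a subunit of complex IV, in both (0.43 and 0.38), while under plasmatocyte marker scaling sun was at 0.04 in p210 and cype at -0.03 and -0.08. The alpha subunit blw was at 0.33 ± 0.15 and 0.36 ± 0.15 and was not called.

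Around the complexes, genes of mitochondrial regulation and dynamics numbered 6 higher of 10 tested in p210 and 5 in T315I. srl, the fly PGC-1 coactivator, rose by 1.14 ± 0.19 and 1.08 ± 0.19 and ewg, the orthologue of NRF-1, by 1.06 ± 0.16 and 0.81 ± 0.16 on the log2 scale. Of all genes tested, 26.9% were called higher and 30.3% lower in p210, and 20.5% and 28.7% in T315I. Under plasmatocyte marker scaling 1 gene of this list was called higher and 1 lower in p210, and 1 and 2 in T315I. There srl was still called, at 0.65 and 0.64, and ewg was not, at 0.55 and 0.36. For mitochondrial transcription, replication and mRNA handling, 5 of 12 were higher in p210 and 3 in T315I, with mtTFB2, a mitochondrial transcription factor, at 0.72 ± 0.20 and 0.70 ± 0.20 and Lrpprc2, an orthologue of the RNA-binding LRPPRC, at 0.50 ± 0.16 and 0.45 ± 0.16. No gene of that list was called under plasmatocyte marker scaling, where its medians were -0.12 and -0.21. Assembly factors had 1 of 7 called in p210, Cox10, an enzyme of heme synthesis for complex IV, at 0.51 ± 0.14, or 0.02 under plasmatocyte marker scaling. In T315I edgeR and DESeq2 called 0, and 1 had an unadjusted p under 0.05. The citric acid cycle and pyruvate dehydrogenase list had 3 higher and 2 lower of 17 in p210, and 1 and 2 in T315I. Ogdh, of the 2-oxoglutarate dehydrogenase complex, was at 0.87 ± 0.18 and 0.79 ± 0.18, or 0.35 and 0.33 without a call under plasmatocyte marker scaling. mAcon2, an aconitase paralog, fell from 70.8 ± 53.4 CPM to 7.68 ± 2.41 and 14.5 ± 2.20. Of 7 carriers, 2 were higher and 3 lower in p210 and 3 were lower in T315I, with Porin2 at -3.14 ± 0.53 and -2.30 ± 0.51 and Ucp4C at -2.36 ± 0.43 and -1.54 ± 0.41. Over control replicates 1 to 3 Porin2 was at 33, 168 and 89.8 CPM, Ucp4C at 8.12, 26.9 and 13.9, and mAcon2 at 20.3, 127 and 65.5. Control replicate 1 was lowest and control replicate 2 highest, as for the testis markers. The part of testis RNA in these falls was not tested.

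Mitochondrial ribosomal proteins had 27 of 71 tested genes higher in p210 (38.0%, median 0.34) and 6 in T315I (8.45%, median 0.23). Cytosolic ribosomal proteins had 2 higher and 6 lower of 83 in p210 (median 0.01) and 1 and 6 in T315I (median -0.10). Over all genes the shares were 26.9% higher and 30.3% lower in p210, and 20.5% and 28.7% in T315I. Beside these families the core subunits, at 11.7% and 3.33% called, had medians of 0.18 and 0.12. Under plasmatocyte marker scaling the medians were -0.13 and -0.24 for mitochondrial ribosomal proteins, with 0 called, and -0.46 and -0.57 for cytosolic ones, with 8 and 15 called lower. Of all 9978 genes, 3562 and 3516 were called lower under it. Whether these groups differ from each other was not tested. The non-member genes whose levels over the 9 libraries were most like the summed core level were Fibp, atms, Pgd, SrpRalpha and SCAR, each with a Spearman rho of 0.983 and with Pearson's r on log2 CPM from 0.661 to 0.948. These points share libraries and scaling, and the values are a description.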

How the data were processed

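Total RNA of hemocytes was sequenced in 9 libraries after stranded library preparation with ribosomal RNA depletion, per the labels' protocols. The submitters' processing notes name FastQC 0.11.8, HISAT2 2.1.0 and featureCounts 2.0.1 with genome build dm6. The authors deposited raw counts per gene without normalization. Not given in the sources used here were the release of gene models used for counting, whether strand was used, and how multi-mapping reads were handled. Symbols were matched to the Ensembl annotation of the same assembly (release 115), which holds 17554 of the 17874 genes and all 86 members.

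The members and lists were chosen with earlier results of these data known. The counts were filtered by filterByExpr (9978 genes kept), scaled by TMM and fitted by edgeR 4.0.16 (R 4.3.3, limma 3.58.1) with the robust quasi-likelihood model, 1 mean per group over all 9 libraries. Two-sided tests were called at a p under 0.05 after Benjamini-Hochberg adjustment over all genes tested. The fit was also run on simulated data with 200 genes changed in p210. Far more genes were called in the real p210 comparison, so that run does not show how well these calls hold. Standard errors were obtained as the size of the log2 fold change over the root of its F value. CPM use TMM-scaled totals, and means are given with the SD over 3 libraries. The value of 3 counts covers counting error only. Replicates are called biological in the labels. No libraries were identical, and replicates differed by more than counting noise (chi-square per degree of freedom 13.4 to 90.7).

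Genes were named by rule: per complex the core subunits with the highest and lowest mean CPM and the 2 largest rises and falls in p210 against control and T315I against p210, 20 subunits always, each testis-type paralog with at least 10 counts, core subunits not tested, the 2 largest called changes of each other list and the 5 genes of most like pattern. ND-B17, ND-30, ND-MLRQ, ND-13A, ND-B14.7, Cyt-c-p, blw, sun, cype and the 10 paralogs at 0 were named outside it, after their values were seen. Alternatives were RLE scaling, DESeq2 1.42.0, no filter, a replicate block, fits of the compared groups alone, scaling to plasmatocyte markers, thinning to the shallowest library, scaling without other-tissue genes and the 100 most abundant genes, core subunits with at least 50% of exonic length free, and each library left out. Sequences and promoter motifs were not analysed here.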

Additional observations from a re-analysis of the deposited data

How the results depend on the processing

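The number of core subunits called higher in p210 against control was 7, and it was 2 with the 2 groups fitted alone, 2 after thinning and 0 when scaled to plasmatocyte markers, where 1 was called lower. In T315I against control the 2 calls became 1 after thinning and 0 under plasmatocyte marker scaling, where 2 were called lower. The core median of 0.18 in p210 became -0.28 under plasmatocyte marker scaling. That of 0.12 in T315I became -0.35 under plasmatocyte marker scaling, 0.18 without a filter and 0.07 after thinning. Plasmatocyte marker scaling moves every gene by construction, and the medians over all genes were -0.45 and -0.49 under it. The 12 markers themselves had a median of -0.24 under it in both comparisons. Of these markers Ppn rose most under the main scaling, by 1.70 and 1.54 on the log2 scale. The marker scaling uses the plain sum of marker counts, and most of the rise in that sum came from Ppn in both comparisons. A marker sum without Ppn was not tested. The cause of the other shifts was not tested. With 1 library left out at a time, core subunits called higher numbered 2 to 16 in p210 and 1 to 11 in T315I. Core medians ran from 0.07 to 0.28 in p210, from 0.07 to 0.21 in T315I and from -0.14 to 0.06 in T315I against p210. Testis-type paralogs called lower numbered 12 to 13 in p210 and 7 to 13 in T315I. The 2 core calls in T315I were 3 with DESeq2, with the 2 groups alone and with scaling without other-tissue and abundant genes.

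The labels number replicates alike in each group, but same-numbered libraries did not deviate together (9 pairs with correlations from -0.378 to 0.19, 2 over 0.1). With the replicate number as a block, 7 and 2 core subunits were called higher, with medians of 0.17 and 0.13, and 8 testis-type paralogs were called lower in T315I. The 7 and 2 core calls were in no case kept in all 17 settings, since all were lost under plasmatocyte marker scaling. ND-ACP was lost under that setting alone in both comparisons, and so was ND-AGGG in p210. Of the 13 paralog calls, 12 in p210 and 6 in T315I were kept in all 17.

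Over 2494 values of single genes named by rule, 2260 kept direction and call, 68 lost the call, 31 gained it and 135 changed sign at 2 decimals. Of these 135, 2 belonged to called genes, SdhC at -0.08 and ATPsynC at -0.12 in p210 under plasmatocyte marker scaling, and 0 were called with the new sign. The called genes ND-B17 and ND-30 were not named by rule and are not in these counts. They also changed sign under that scaling, ND-B17 at -0.09 in p210 and -0.10 in T315I and ND-30 at -0.03 in p210. Of the 135, 78 arose in settings other than leaving out a library. Most of them came from plasmatocyte marker scaling, with the cause in its construction. In p210 against control complex I had ND-20 at -0.24, ND-39 at -0.35, ND-49 at -0.21, ND-51 at -0.24, ND-75 at -0.26, ND-B14 at -0.43 and ND-MWFE at -0.41. Complex II had SdhA at -0.16, SdhB at -0.05, SdhC at -0.08 and SdhD at -0.43. Complex III had UQCR-11 at -0.25, UQCR-6.4 at -0.27, UQCR-C2 at -0.28 and UQCR-Q at -0.36. Complex IV had COX4 at -0.19, COX5B at -0.16, COX6B at -0.16, COX7C at -0.14 and COX8 at -0.23. Complex V had ATPsynB at -0.43, ATPsynC at -0.12, ATPsynCF6 at -0.09, ATPsynO at -0.33, ATPsyndelta at -0.14 and ATPsyngamma at -0.33. In T315I against control complex I had ND-20 at -0.33, ND-39 at -0.31, ND-49 at -0.24, ND-51 at -0.28, ND-75 at -0.28, ND-AGGG at -0.03, ND-B14 at -0.35 and ND-MWFE at -0.28. Complex II had SdhA at -0.17, SdhB at -0.14, SdhC at -0.16 and SdhD at -0.42. Complex III had UQCR-11 at -0.36, UQCR-6.4 at -0.41, UQCR-C2 at -0.31 and UQCR-Q at -0.36. Complex IV had COX4 at -0.21, COX5A at -0.13, COX5B at -0.30, COX6B at -0.27, COX7C at -0.18 and COX8 at -0.24. Complex V had ATPsynC at -0.13, ATPsynCF6 at -0.20, ATPsynO at -0.37, ATPsyndelta at -0.28 and ATPsyngamma at -0.40. In the other settings the cause was not tested. Under a fit of the 2 groups alone they were ATPsynB at -0.03, ND-B14 at -0.01, ND-MWFE at -0.02 and SdhD at -0.02 in p210 against control. Under RLE scaling they were ATPsynB at -0.01 in p210 against control, and COX8 at 0.01 and UQCR-Q at 0.01 in T315I against p210. Under scaling without other-tissue and abundant genes they were ATPsynB at -0.01 in p210 against control, and ATPsynC at 0.02, ATPsynO at 0.01, COX4 at 0.02, COX8 at 0.04, ND-49 at 0.02, UQCR-C1 at 0.02 and UQCR-Q at 0.03 in T315I against p210. Under thinning they were ATPsynB at -0.03, ND-B14 at -0.08 and UQCR-Q at -0.01 in p210 against control, and SdhD at -0.01, UQCR-11 at -0.01 and UQCR-6.4 at -0.01 in T315I against control, and ATPsynE at 0.01, SdhD at -0.01, UQCR-C1 at 0.02 and UQCR-Q at 0.10 in T315I against p210. 57 arose with 1 library left out, given as lowest to highest log2 fold change. In p210 against control they were ATPsynB from -0.13 to 0.15, ND-39 from -0.02 to 0.25, ND-B14 from -0.04 to 0.21, ND-MWFE from -0.13 to 0.19, SdhD from -0.06 to 0.17 and UQCR-C1 from -0.15 to 0.06. There were also UQCR-Q from -0.02 to 0.24. In T315I against control they were COX7A from -0.18 to 0.02 and UQCR-Q from -0.03 to 0.24. In T315I against p210 they were ATPsynB from -0.21 to 0.06, ATPsynC from -0.08 to 0.06, ATPsynCF6 from -0.16 to 0.05, ATPsynE from -0.18 to 0.04, ATPsynO from -0.12 to 0.10 and ATPsynbeta from -0.16 to 0.06. There were also ATPsynepsilonL from -0.47 to 0.32, ATPsyngamma from -0.16 to 0.06, COX4 from -0.10 to 0.11, COX6B from -0.18 to 0.04, COX6CL from -0.07 to 0.51 and COX7A from -0.04 to 0.13. There were also COX7C from -0.11 to 0.09, COX8 from -0.09 to 0.15, ND-20 from -0.14 to 0.04, ND-39 from -0.05 to 0.20, ND-49 from -0.08 to 0.08 and ND-51 from -0.13 to 0.10. There were also ND-75 from -0.11 to 0.03, ND-B22 from -0.03 to 0.14, ND-B8 from -0.42 to 0.27, SdhB from -0.19 to 0.01, SdhD from -0.07 to 0.13 and UQCR-C1 from -0.10 to 0.09. There were also UQCR-C2 from -0.10 to 0.04 and UQCR-Q from -0.07 to 0.11.

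All 13 tested paralogs were under 10 CPM in every p210 library, and the control libraries were the shallowest. Thinning to the shallowest library left 12 of the 13 paralog calls in p210 and 12 in T315I. With 3 libraries in a group, the spread between libraries, which for the summed core level was widest in p210, limits what can be seen of small differences of core subunits.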
